A study of Drosophila melanogaster with 2 samples.

Results

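Egfr, Shc, drk, Sos, Ras85D, Raf, Dsor1, rl, pnt and aop, 10 of 13945 annotated protein-coding genes, were examined for binding of the helix-loop-helix protein extra macrochaetae (emc) in Drosophila melanogaster embryos. The genes were selected by name as the core of EGFR, Ras and Raf signalling. They were put together after results of these data were known, above all the intronic peaks of Raf and the strong promoter peak of Shc, whose values are therefore given as a description with no test. The samples were 2 biological replicates, numbered 1 and 3, of 1 group: whole embryos of both sexes, 0 to 24 h old, from a transgenic line in which emc carries eGFP at its C-terminus. Chromatin was precipitated with an antibody against GFP and sequenced. No sample without the fusion protein was at hand, and whole embryos mix all cell types, so a peak cannot be placed in any one tissue, and binding in fewer cells cannot be told apart from less binding per cell.

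Epidermal growth factor ligands activate the receptor Egfr, a tyrosine kinase, and the adaptors Shc and drk join the activated receptor to Sos, which loads the small GTPase Ras85D with GTP. Ras85D then engages the kinase Raf, which phosphorylates the kinase Dsor1, which in turn phosphorylates the MAP kinase rl. In the nucleus rl acts on a pair of Ets proteins, the activator pnt and the repressor aop, also known as Yan. In the fly embryo the pathway patterns the ventral ectoderm and the trachea, and EGFR signalling also patterns eye and wing later in life. The emc protein belongs to the Id family, which lacks a DNA-contacting basic region and is best known for holding other helix-loop-helix proteins in dimers that do not bind DNA.

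Peaks were taken from each gene's body with 5 kb on each side, in dm6 coordinates. The irreproducible discovery rate (IDR) measures how well a peak's rank holds between replicates, and the peaks the authors kept by it are called IDR peaks. The list held 1865 of them, the pooled list 29400 peaks and each replicate list 30000. The signal is the authors' value for each peak, as scaled by their peak caller, and rank 1 is the highest signal in a list. Each IDR peak at the 10 genes had the same rank in the pooled list as in the IDR list. No other pooled peak there reached the lowest signal of the IDR list, 62.7. At these genes a place in the list thus went with pooled signal, and does not show that each peak by itself was reproducible. The lists carry no read totals, so the depth behind a peak is unknown. The labels call the replicates biological without describing separate collections, so their spread may be technical.

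Of the 10 genes, 6 had at least 1 IDR peak, namely Shc, drk, Ras85D, Raf, pnt and aop, against 29.0% of all protein-coding genes. Egfr, Sos, Dsor1 and rl had none. Among the 5 genes of 20 kb or more, 3 had an IDR peak, against 41.7% of all genes of that length. Among the 5 shorter genes it was also 3, against 28.0%. An IDR summit lay within 1000 bp of a transcription start of 4 genes, Shc, Ras85D, Raf and aop, against 12.4% of all protein-coding genes. With 10 genes chosen after earlier results, these counts describe the genes and were not tested.

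The 6 genes held 18 IDR peaks, 8 of them at Raf. Their median signal was 114, against 94.2 over all IDR peaks, and 10 of the 18 lay in the 932 IDR peaks of higher signal. By position 11 summits were in introns, 5 within 500 bp of a start and 2 between genes. Over all IDR peaks 28.4% were in introns, 60.9% in promoters and 8.63% between genes. Of the 11 intronic summits 7 were at Raf, a gene put in the set for its intronic peaks. The shares by position are therefore a description and were not tested. Only 2 of the 5 promoter summits lay at the start of the member gene itself, at Shc and Ras85D, and the other 3 lay at the starts of neighbours.

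**Figure D1:**
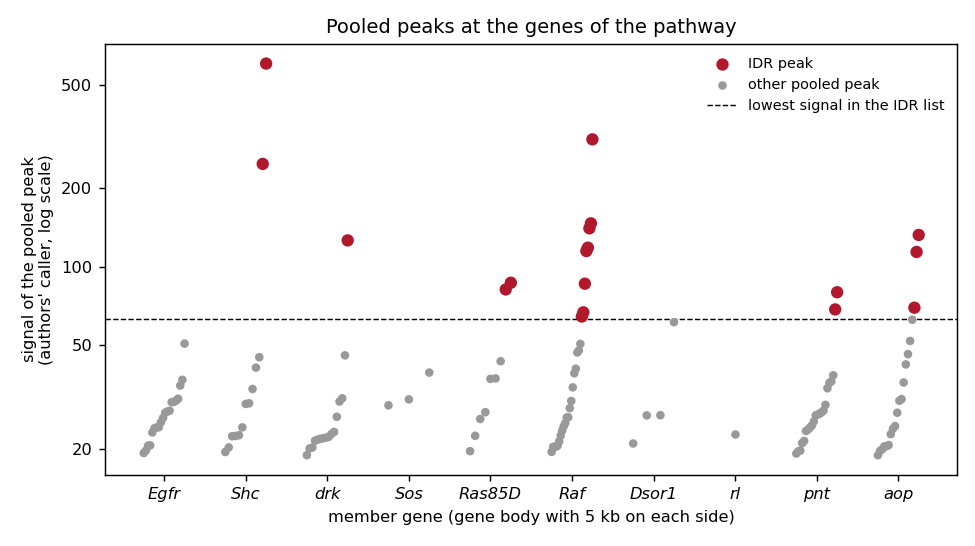
Signal of every pooled peak (vertical axis, log scale, authors' units) at each of the 10 genes with 5 kb on each side, with IDR peaks in red, other pooled peaks in grey and the lowest signal of the IDR list, 62.7, as a dashed line. Shc has the highest peak at 602, Raf has 8 red points, and Egfr, Sos, Dsor1 and rl have none.

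At the adaptor gene Shc (FBgn0015296, chr3L:9427010-9428671, forward strand) the peak at chr3L:9426729-9427033 had a signal of 602 and ranked 13 of 1865. In the replicate lists it had 295 (rank 8) in replicate 1 and 309 (rank 15) in replicate 3, so its rank was high in both. The summit was 118 bp upstream of the Shc start and 134 bp from the start of Atat, an alpha-tubulin acetyltransferase gene read in the opposite direction. The peak thus lay in the gap between a divergent pair and cannot be given to one of them.

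The part of that peak outside annotated exons is shown because it is the strongest peak of the 10 genes. It is read on the forward strand and capitals mark the DNA replication-related element (DRE), searched as TATCGATA on both strands.
Shc promoter, chr3L:9426759-9427009: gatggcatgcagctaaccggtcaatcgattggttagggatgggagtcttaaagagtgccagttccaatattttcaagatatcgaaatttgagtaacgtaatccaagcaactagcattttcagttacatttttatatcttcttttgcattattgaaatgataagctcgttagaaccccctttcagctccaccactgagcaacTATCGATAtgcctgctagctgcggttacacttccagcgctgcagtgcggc

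The DRE lay 43 to 50 bp upstream of the Shc start and 68 bp from the summit. No E-box, the CANNTG site of helix-loop-helix dimers, was present in these 251 bases, which had 43.0% GC. Promoter peaks next in rank were at PNPase (signal 650, rank 11) and CG1888 (613, rank 12) above, and at Chro (589, rank 14) and Tcs5 (553, rank 17) below. The Chro and Tcs5 peaks also each lay within 500 bp of a second gene's start, Ssl1 and CHMP2B.

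A second IDR peak in the Shc window, at chr3L:9422857-9423236, had a signal of 248 and ranked 116. It was 3963 bp upstream of Shc and 206 bp from the start of aay, a phosphoserine phosphatase gene that lies within Atat. Its replicate signals were 88.3 (rank 179) in replicate 1 and 161 (rank 89) in replicate 3. The other 11 pooled peaks in the window reached 44.8 at most.

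**Figure D2:**
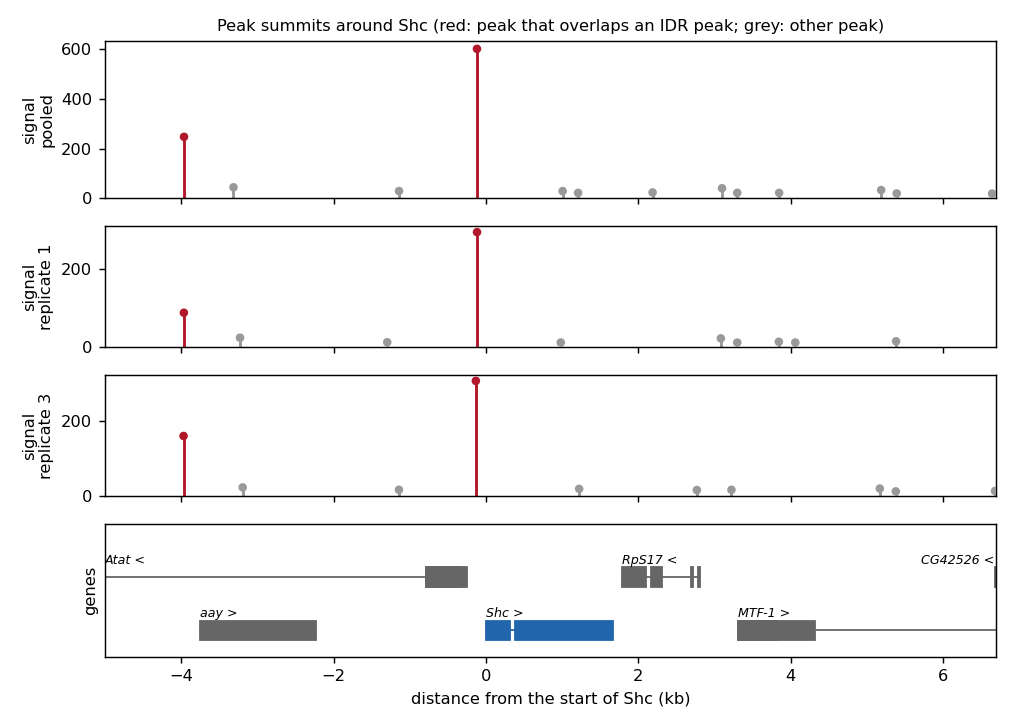
Signal at each peak summit (vertical axes from 0, authors' units) against distance from the start of Shc in kb, in the pooled list and in replicates 1 and 3, with genes below. Peaks that overlap an IDR peak are red: the one between Atat and Shc stands at 602, 295 and 309 in the 3 panels, and the one at aay at 248, 88.3 and 161.

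The receptor gene Egfr (FBgn0003731, chr2R:21522420-21559977) had no IDR peak but 20 pooled peaks. The strongest, at chr2R:21527273-21527652 in its first intron, had a signal of 50.6 and ranked 2707. Its signal was 16.1 (rank 9594) in replicate 1 and 32.3 (rank 2557) in replicate 3, so the replicates placed it far apart. The best replicate 3 peak of the locus, 33.2 (rank 2428), was elsewhere in an Egfr intron, and the best of replicate 1 (18.2, rank 6268) lay in a coding exon upstream of the gene.

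The adaptor drk (FBgn0004638, chr2R:13495222-13502841, reverse strand), the fly counterpart of GRB2, had 1 IDR peak, at chr2R:13499570-13499949. It lay in an intron of all 5 annotated drk transcripts, 2533 bp from the nearest drk start. Its signal was 126 (rank 499), with 52.7 (rank 539) in replicate 1 and 77.3 (rank 464) in replicate 3. The 3 ranks were close. The nearest start of any gene, 861 bp away, was that of mars, a mitotic protein gene.

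Sos (FBgn0001965, chr2L:13813816-13819824), the exchange factor for Ras, had 3 pooled peaks and no IDR peak. The strongest of the 3 had a signal of 39.1 (rank 4596) and its summit was 503 bp downstream of the start, in a coding exon. The best overlapping peak ranked 4416 in replicate 1 (20.1) and 12953 in replicate 3 (15.5). The locus had fewer pooled peaks per length than most, 1.87 per 10 kb against a median of 3.08 over all gene windows.

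At Ras85D (FBgn0003205, chr3R:9510561-9513067, reverse strand), the Ras GTPase gene, 1 IDR peak lay at its own start. This peak, chr3R:9512913-9513292, had a signal of 81.7 (rank 1169), with 30.9 (rank 1498) in replicate 1 and 50.8 (rank 1084) in replicate 3. Its summit was 36 bp upstream of Ras85D and 224 bp from the start of Rlb1, again a divergent pair. The other IDR peak of the window, chr3R:9515818-9516197, had a signal of 86.6 (rank 1053) and lay 1 bp from starts of CG8176 and the histone demethylase gene Kdm3, 100 bp from mRpL47 and 2941 bp from Ras85D.

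The gap between Ras85D and Rlb1 within the peak is shown on the forward strand for comparison with the Shc promoter, with DRE in capitals.
Ras85D promoter, chr3R:9513068-9513292: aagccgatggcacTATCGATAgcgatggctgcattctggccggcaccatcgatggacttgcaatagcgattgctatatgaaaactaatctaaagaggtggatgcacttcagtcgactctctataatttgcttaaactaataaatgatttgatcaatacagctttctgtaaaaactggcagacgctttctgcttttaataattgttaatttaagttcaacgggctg

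Here DRE lay 14 to 21 bp upstream of the Ras85D start and 15 bp from the summit. Among the 5 promoter peaks of the 10 genes 2 held DRE. Both were within 500 bp of the gene's own start and of a divergent neighbour's, Atat or Rlb1. The 3 at neighbours' starts alone held none, and these are too few peaks for a comparison. Within 100 bp of the summit the motif was present in 8.45% of 1136 promoter IDR peaks, 5.31% of all IDR peaks and 1.36% of weaker pooled peaks. None of the 13 member peaks away from promoters held it, against 0.412% of 729 such IDR peaks.

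Raf (FBgn0003079, chrX:2295466-2343870, forward strand), the kinase below Ras, had 8 IDR peaks in its window, and 7 of their summits were in 1 intron. The annotation gives 2 transcripts. The longer one, Raf-RE, has a second intron of 43.6 kb, chrX:2296354-2339990, or 90.1% of its length. The shorter, Raf-RA, starts downstream of that intron. The intron also holds the protein-coding genes CG14050, CG2854 and Ilp6 (an insulin-like peptide gene) and 2 long non-coding RNA genes.

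The first 6 of these peaks formed a row in the 5' part of the intron. Their summits were 926, 2259, 3744, 5270, 6745 and 8644 bp downstream of the Raf start, a span of 7718 bp, with gaps of 1333 to 1899 bp. The strongest was the second, chrX:2297599-2297830, with a signal of 308 (rank 66), 123 (rank 83) in replicate 1 and 191 (rank 56) in replicate 3. The sixth, chrX:2303920-2304299, had 146 (rank 370), with 74.1 in each replicate (ranks 261 and 507).

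The fourth, chrX:2300546-2300925, had 140.2 (rank 408), with 66.0 (rank 344) in replicate 1 and 81.4 (rank 413) in replicate 3. The first, chrX:2296202-2296581, had 118 (rank 578) and was the least even, with 32.6 (rank 1357) in replicate 1 and 85.4 (rank 379) in replicate 3. In replicate 1 its summit was also displaced by 154 bp, the largest displacement among the 18 peaks in that replicate. The pooled interval of this first peak began in the exon before the intron, which starts at 2296354, so the peak lay across their border. The fifth, chrX:2302021-2302400, had 85.9 (rank 1063), with 42.1 and 46.8 in replicates 1 and 3, and the third, chrX:2299020-2299399, had 66.7 (rank 1682), with 30.2 and 35.6. Signal therefore did not fall steadily with distance from the start.

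The seventh intronic peak stood 25458 bp beyond the sixth, at chrX:2329378-2329757, 591 bp from the start of the non-coding RNA gene lncRNA:CR33218. Its signal of 64.3 ranked 1796 and was close to the lowest in the IDR list, and its replicate signals were 32.4 (rank 1370) in replicate 1 and 32.5 (rank 2524) in replicate 3. The eighth IDR peak of the window, chrX:2293557-2293936, was upstream of Raf by 1719 bp and 336 bp from the start of CG2865, with a signal of 114.7 (rank 615).

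No other protein-coding gene had as many IDR summits in its introns and over 500 bp from any start: 7 was reached by Raf alone, 0.00717% of the 13945 genes, while 13534 genes had none. The rule for naming genes like Raf thus named no gene. Under other settings Raf was not alone: 3 genes, Raf among them, had at least as many intronic summits when summits near a start were counted too, and 3 when only those over 1000 bp from any start were. In the 932 IDR peaks of higher signal it was 4 genes, in the top 1865 peaks of replicate 1 alone 4, and in those of replicate 3 alone 7. Since this count is what brought Raf into the set, it is a description. Between the first and the sixth of the Raf peaks the pooled list had just 1 further peak apart from those that touch an IDR peak, so most of what was called in this stretch was in the IDR list.

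The 6 peaks of the row are shown on the forward strand. The strongest is given as its whole interval and the first from the 5' end of the intron on. The others are given as the summit with 50 bases on each side. The stretches differ in length, so their numbers of E-boxes cannot be compared directly. Capitals mark E-boxes (CANNTG, both strands).
Raf peak 1, chrX:2296354-2296442: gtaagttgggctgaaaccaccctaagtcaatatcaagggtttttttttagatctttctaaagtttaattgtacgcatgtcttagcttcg
Raf peak 2, chrX:2297599-2297830: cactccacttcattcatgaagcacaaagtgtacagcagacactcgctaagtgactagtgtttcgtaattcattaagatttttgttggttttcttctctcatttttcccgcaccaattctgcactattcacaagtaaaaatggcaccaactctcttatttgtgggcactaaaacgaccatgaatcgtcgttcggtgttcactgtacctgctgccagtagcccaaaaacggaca
Raf peak 3, chrX:2299160-2299260: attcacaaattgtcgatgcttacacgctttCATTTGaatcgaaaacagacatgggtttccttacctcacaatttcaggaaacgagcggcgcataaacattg
Raf peak 4, chrX:2300686-2300786: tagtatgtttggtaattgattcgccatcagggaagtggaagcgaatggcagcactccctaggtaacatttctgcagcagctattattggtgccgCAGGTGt
Raf peak 5, chrX:2302161-2302261: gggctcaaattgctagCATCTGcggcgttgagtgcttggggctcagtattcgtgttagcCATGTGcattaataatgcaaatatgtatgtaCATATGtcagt
Raf peak 6, chrX:2304060-2304160: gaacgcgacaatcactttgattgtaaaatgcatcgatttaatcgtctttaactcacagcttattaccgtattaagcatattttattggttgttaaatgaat

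The strongest peak, the second, had no E-box in its 232 bases, and the sixth had none either. Peak 5, one of the weaker peaks of the row, had 3 in the printed bases. Within 100 bp of the summit the peaks of the row held 1, 0, 2, 2, 4 and 0 E-boxes, from the first to the sixth. Of the 4 at peak 5, 1 was CAGCTG outside the printed bases. Peak 5 was also the single member peak with GAGA (searched as GAGAGAG), which 4.50% of all IDR peaks held.

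Dsor1 (FBgn0010269, chrX:9247342-9250037), the MEK kinase gene, had 4 pooled peaks and no IDR peak. The strongest, chrX:9243561-9243940, was just outside the IDR list, with a signal of 61.1 and a pooled rank of 1955. It had 38.1 (rank 1048) in replicate 1 and 28.1 (rank 3392) in replicate 3, and lay 66 bp from the start of Larp7 and 3591 bp from Dsor1. A peak 27 bp from the start of Dsor1 itself had a pooled signal of 20.9, and within the gene the highest was 26.8. The peak near the start lay closer to the start of amx, 21 bp away, and was overlapped in replicate 1 only.

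At rl (FBgn0003256, chr2R:1071462-1125927), the MAP kinase gene, almost nothing was called. The pooled list had 1 peak of signal 22.7 (rank 19339) in its 64.5 kb window, replicate 1 had 2 peaks and replicate 3 had none. Only 6.65% of gene windows had fewer pooled peaks per length. The gene lies near the centromere of its arm, and 46.6% of the window is masked as repeats in the reference, against a median of 12.2% over all gene windows. Peaks are called from reads that can be placed, and the part of the repeats in this result was not tested.

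The gene pnt (FBgn0003118, chr3R:23290231-23346167, reverse strand), the Ets activator, had 2 IDR peaks, both of low rank, far from its starts and in intron 3 of 1 of its 4 transcripts. The peak at chr3R:23326275-23326654 had a signal of 79.7 (rank 1235), with 36.1 (rank 1143) in replicate 1 and 40.5 (rank 1656) in replicate 3. The peak at chr3R:23332629-23333008 had 68.4 (rank 1597), with 21.7 (rank 3498) and 44.1 (rank 1417). Replicate 1 thus placed it well below the top 1865. At the starts of pnt the best pooled signal was 38.2.

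The repressor gene aop (FBgn0000097, chr2L:2156484-2178754, reverse strand) had 3 IDR peaks, of which 1 was intronic and 2 lay upstream. The intronic peak, chr2L:2163456-2163835, had the highest signal, 132 (rank 465), with 60.1 (rank 420) in replicate 1 and 66.8 (rank 633) in replicate 3. The upstream peaks were 867 and 1453 bp from the aop start. They had signals of 114 (rank 621) and 69.5 (rank 1555), with 51.2 and 28.1 in replicate 1 and 62.2 and 40.7 in replicate 3. One more aop peak, in an intron at chr2L:2176003-2176382, missed the list with 62.4 (pooled rank 1885).

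The centre of the strongest aop peak is shown because it is 1 of 2 member peaks with the E-box form CAGCTG, present in 10.3% of all IDR peaks; the other is peak 5 of the Raf row. Capitals mark E-boxes on either strand.
aop intron, chr2L:2163596-2163696: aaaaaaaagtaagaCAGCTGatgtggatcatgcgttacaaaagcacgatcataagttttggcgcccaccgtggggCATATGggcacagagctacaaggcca

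The signals nearest to the lower end of the IDR list, 62.7, were 66.7 and 64.3 at Raf inside it and 62.4 at aop and 61.1 at Dsor1 outside it. The aop peak was 1 further peak of a gene that had 3 in the list, while Dsor1 had none there. The other 3 genes without an IDR peak were further below, with best pooled signals of 50.6 at Egfr, 39.1 at Sos and 22.7 at rl.

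Both replicates had an overlapping peak at each of the 18 member IDR peaks, as they did at 99.4% of all IDR peaks, a share the IDR threshold itself favours. Among the 1865 top-ranked peaks of each replicate, 15 of the 18 were found in both, against 70.1% of all IDR peaks. The exceptions were the Raf peaks 3744 and 34102 bp from its start, ranked 2148 and 2524 in replicate 3, and the pnt peak ranked 3498 in replicate 1. The signal of replicate 3 was above that of replicate 1 at 16 of the 18, with a median ratio of 1.22 and a range from 0.963 to 2.62. Over 1854 IDR peaks in both lists the ratio was above 1 in 81.9%, with a median of 1.36, so higher values in replicate 3 were usual in the whole list. Across the 18 peaks, which share the 2 libraries, the replicate ranks had a Spearman correlation of 0.802. The IDR threshold favours such agreement too, and no value over all IDR peaks is set beside it. Pooled and replicate summits differed by a median of 17 bp in replicate 1 and 11.5 bp in replicate 3.

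**Figure D3:**
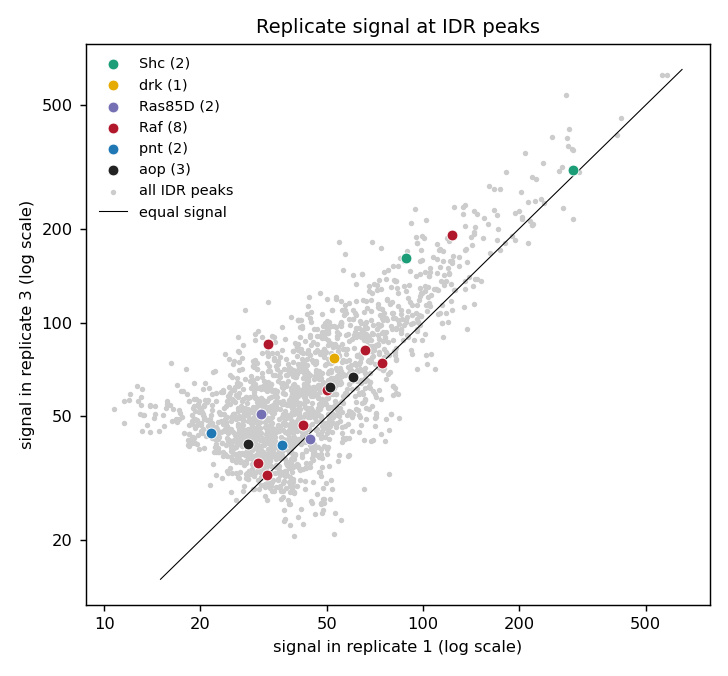
Signal in replicate 3 (vertical) against replicate 1 (horizontal), both log scales in the authors' units, for the IDR peaks of 6 pathway genes (coloured, number of peaks in brackets) and for all IDR peaks in both lists (grey); the line marks equal signal. Most coloured points lie above the line like the grey ones, and the strongest Shc peak is at the upper right with 295 and 309.

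Pooled peaks that overlap no IDR peak are called weaker peaks. The 10 gene windows held 116 of them, and 64, 55.2%, were overlapped in both replicates, against 39.4% of all 27229 weaker peaks. By gene it was 11 of 17 at aop, 10 of 20 at Egfr, 9 of 20 at pnt, 9 of 19 at Raf, 8 of 15 at drk, 8 of 11 at Shc, 4 of 6 at Ras85D, 3 of 3 at Sos, 2 of 4 at Dsor1 and 0 of 1 at rl. Their median signal, 25.3, was near the 24.6 of all weaker peaks. The gap depended on the overlap rule. With a reciprocal overlap of 50%, 43 of the 116 were overlapped in both replicates, against 31% of all weaker peaks. With the summit inside the replicate peak it was also 43, against 31.2%. Neighbouring peaks in 1 window share their surroundings and can overlap the same replicate peak, and the difference was not tested.

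The share of member peaks with an E-box was close to that of all IDR peaks. Within 100 bp of the summit 11 of 18 member peaks had one, 61.1%, against 63.4% of all IDR peaks and 67.3% of weaker peaks. Of the sites for proteins of this pathway's output, the Ets core CCGGAA was in none of the 18, against 5.63% of all IDR peaks. The Capicua site TGAATGAA and the AP-1 site TGANTCA were also in none, against 1.39% and 4.29%. TATAAA was in 5 of 18, 27.8%, against 29.5%. The median GC content was 39.3% (range 26.4 to 48.3), against 37.3% at all IDR peaks and 46.8% at weaker ones.

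The other motifs searched, all on both strands, were rare at the members and over the whole list. The E-box form CACGTG, which is counted among the E-boxes as CAGCTG is, was in none of the 18, against 2.95% of all IDR peaks. The M1BP promoter motif GGTCACAC, the Zelda site CAGGTAG and the repeat CACACACA were also in none, against 2.57%, 0.965% and 4.18%. A GATA site, AGATAAG, was in 1 of 18, the aop peak of rank 621, against 2.68%.

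The other genes of the pathway were taken from a list of 45 genes by role, written with earlier results of this series known. An IDR peak lay in the window of 24 of them, 53.3%, against the 29.0% of all protein-coding genes given above. Among the 10 of 20 kb or more it was 8, against 41.7% of all genes of that length. Among the 35 shorter ones it was 16, against 28.0%. The best peak was nearest to a start of the listed gene in 14 of the 24 and within 500 bp of it in 6, so many of these peaks sit closer to a neighbour. In all 38 distinct IDR peaks were involved.

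Of the ligand genes 3 of 4 had an IDR peak. The spi gene, which encodes the main ligand Spitz, had a promoter peak of signal 285 (rank 81), with 112 in replicate 1 and 172 in replicate 3. Krn, a second ligand gene, had 187 at 4289 bp from its start, nearer to CG7484, and vn, a neuregulin-like ligand gene, had 70.3 in an intron. No IDR peak lay at the ligand gene grk. Of the ligand processing genes 2 of 4 had one: S (Star), which escorts the Spitz precursor, had 152 in an intron, and ru, a rhomboid protease gene, had 91.1.

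Feedback inhibitors were represented by aos, encoding the secreted inhibitor Argos, with an intronic peak of 206 (rank 174; 71.6 in replicate 1 and 133 in replicate 3), and by sty (Sprouty) with 85.8 at 1005 bp from its start. The other 2 of these 4 genes, kek1 and Cbl, had none. Of 5 adaptor and phosphatase genes 2 had an IDR peak, csw, the SHP2 phosphatase gene, with 75.8 at 13 bp from its start, and dos with 145, a peak at the start of RpL8.

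Among Ras regulators and effectors 5 of 7 had an IDR peak. The highest were Sur-8 (205), RasGAP1 (157), cno (136) and Rap1 (117). The Sur-8 peak was at starts of Brf and sds22 and the Rap1 peak at the start of CG12024. RasGAP1, a GTPase activator gene, had its peak 702 bp from its own start. Of Raf partners and scaffolds 5 of 7 had one, with Hsp83 (194), cnk (166), 14-3-3zeta (98.3) and ave (75.9) the highest. The cnk peak was at the start of l(2)k01209 and the others at their own starts, shared with RpLP0-like for 14-3-3zeta and with Rpn6 for ave.

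Of the nuclear genes 4 of 6 had an IDR peak, kay (Fos, 116), edl (an Ets regulator, 111), cic (Capicua, 106) and Jra (Jun, 98.3). The Jra peak was the one at the start of 14-3-3zeta, so 1 peak counted for both genes. Of the 8 other receptor tyrosine kinase genes only InR, the insulin receptor gene, had an IDR peak, with 188 in an intron (95.4 in replicate 1 and 94.1 in replicate 3), while tor, sev, htl, btl, Pvr, Alk and Ret had none.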

How the data were processed

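Both samples, replicates 1 and 3, belong to 1 group. Per the labels the embryo chromatin was sonicated to 200 to 800 bp. The authors deposited narrowPeak lists in dm6, relaxed lists per replicate and pooled, and a list thresholded by IDR over both replicates, made against the same control alignment per the deposited listing files. The values used are the signal of each peak and its −log10 q-value, as the authors deposited them. The aligner, caller and IDR threshold were not given in the sources used here, and dm3 lists were not used.

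Members and lists were chosen with earlier results of these data known. Genes and starts came from Ensembl (annotation 6.54), sequence from the Release 6 assembly by RefSeq, the assembly of dm6. Peaks were ranked by signal, ties by q, and overlapped from 1 bp. Summits at most 500 bp from the start of a coding or non-coding RNA transcript were called promoter, and other summits were placed by annotation as exonic, intronic or intergenic. Motifs were searched within 100 bp of the summit. Of 46 listed pathway names, Gap1 is an older name of RasGAP1 and was dropped, which left 45. Named were the members, up to 4 genes a role with an IDR peak, genes with as many intronic IDR summits as Raf, and the promoter peaks next in rank to that of Shc. With 1 group no test was made. The counting steps were tested on simulated data. Alternatives covered windows, overlap rules, the IDR peaks of higher signal and each replicate alone. The split of genes at 20 kb was chosen after values were seen. Software was matplotlib 3.10.9, scipy 1.17.1, pandas 2.3.3 and numpy 2.4.6, under Python 3.11.15.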

Additional observations from a re-analysis of the deposited data

How the results depend on the processing

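Some counts moved by over 1.5 times, and the cause was not tested. In the 932 IDR peaks of higher signal the members' windows held 10 IDR peaks, not 18, and the Raf intron 4, not 7, and 4 genes had a peak, Shc, drk, Raf and aop, against 17.1% of all genes. Within 500 bp of a start 2 genes had a summit, Shc and Ras85D, not 4, against 10.6% of all genes. Within 250 bp of the summit 17 of 18 member peaks had an E-box, against 93.0% of all IDR peaks. The rank of the Shc promoter peak was 8 and 15 in the single replicates. Without replicate 3, Dsor1 also had a peak in the window, which made 7 genes, against 29.0% of all genes. With replicate 1 left out the Raf introns held 5 summits, and with replicate 3 left out 6. Of the members' own values, 5 moved by over 1.5 times: 10 IDR peaks, 4 Raf summits, 2 genes, 17 E-box peaks and Shc rank 8. The members' other values and the count of other pathway genes moved by at most 1.5 times. The number of genes with at least as many intronic summits as Raf moved further, from 1 to between 3 and 7. With gene bodies alone 6 members still had an IDR peak, against 11.1% of all genes, and 17 other pathway genes. With each peak given to the nearest start only it was 4 members, against 10.5%. The replicates are 2, so agreement between them rests on a single pair, and depth was not given.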

Other observations

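The genes with the most intronic IDR summits after Raf were CG1677, CHES-1-like and Hr4, with 6 each, and these 3 were picked after their values were seen. Like Raf, all 3 lie on the X chromosome. The share of all IDR peaks on that chromosome is not given here, and whether it stands out was not tested. The 3 genes span 125, 27.0 and 66.0 kb, against 48.4 kb for Raf. The next genes were shn on 2R and simj on 3L, with 5 each.

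A stretch as short as the row at Raf, 7718 bp, held 6 IDR summits, the highest number found, at 1 other place. That place was on 3L, with summits from 14756048 to 14762395, and its nearest starts were those of Trl, which encodes the GAGA factor, Mgat4a and CG42507.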
